A study of Mus musculus with 2 samples.

Results

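CpG methylation was examined at 7 mouse liver genes that switch fuel use toward fat during food deprivation: Ppara, Ppargc1a, Cpt1a, Fgf21, Pdk4, Acadm and Pnpla2. The members were CpG cytosines covered by 5 or more reads in each library that lay inside the RefSeq span of each gene and 5000 bp on each side. They numbered 1457, of 2247 cytosines listed at these loci in either library and of 2521919 cytosines with that coverage in the series. The assay was reduced representation bisulfite sequencing (RRBS), in which DNA is cut at MspI (CCGG) and TaqI (TCGA) sites and bisulfite turns unmethylated cytosines, but not methylated ones, into a base read as T. Livers came from CD-1 mice, an outbred stock, 12 weeks of age, on standard chow. The control group was untreated and the fasted group went without food for 12 hr before the liver was taken. Each group was 1 library, and the number of mice in it was not stated in the labels. No spread between animals could therefore be estimated, and each test below compares the reads of these 2 libraries, not the conditions. The level of a cytosine is the percentage of its reads that were methylated, the level of a region is the mean over its cytosines, and differences are fasted minus control in percentage points.

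In a fasted liver, fatty acids become the main fuel and part of their carbon leaves as ketone bodies. The lipase encoded by Pnpla2 releases fatty acids from stored triglyceride, the nuclear receptor encoded by Ppara binds fatty acids and switches on oxidation genes, and the protein encoded by Ppargc1a is a coactivator that such receptors recruit. Cpt1a carries out the controlled entry step of fatty acids into mitochondria, Acadm performs the opening step of beta-oxidation on medium-length chains, Pdk4 inhibits pyruvate dehydrogenase and so spares glucose, and Fgf21 is a hormone that the liver secretes. In mammals, CpG-rich starts of genes are generally free of CpG methylation while most other CpGs carry it, and stretches of intermediate level away from starts are a known feature of distal regulatory elements.

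The 250 bases before the RefSeq start show how much of each promoter the assay could read, and the promoters of Ppara, Acadm and Ppargc1a are printed because they span the range from well read to unread. Letters are 5′ to 3′ in the direction of the gene, taken from RefSeq (GRCm38.p6, the build mm10), and capitals mark CpGs with at least 1 cytosine among the members.
Ppara, chr15:85735526-85735775, plus strand: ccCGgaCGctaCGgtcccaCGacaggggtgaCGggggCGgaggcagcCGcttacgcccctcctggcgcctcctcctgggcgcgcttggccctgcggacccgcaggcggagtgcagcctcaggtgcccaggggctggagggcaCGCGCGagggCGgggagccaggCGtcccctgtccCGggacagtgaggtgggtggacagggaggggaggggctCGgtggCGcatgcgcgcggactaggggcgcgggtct
Acadm, chr3:153944644-153944893, minus strand: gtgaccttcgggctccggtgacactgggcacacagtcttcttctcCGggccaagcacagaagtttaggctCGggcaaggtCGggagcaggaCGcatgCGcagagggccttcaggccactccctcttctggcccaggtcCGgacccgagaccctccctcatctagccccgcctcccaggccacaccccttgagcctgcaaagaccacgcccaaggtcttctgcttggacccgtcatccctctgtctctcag
Ppargc1a, chr5:51567726-51567975, minus strand: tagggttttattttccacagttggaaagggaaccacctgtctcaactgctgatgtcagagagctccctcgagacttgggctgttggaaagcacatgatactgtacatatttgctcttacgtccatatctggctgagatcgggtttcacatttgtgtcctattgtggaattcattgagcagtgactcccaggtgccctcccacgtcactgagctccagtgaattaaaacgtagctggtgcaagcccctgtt

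Ppara had 27 CpGs in this stretch, 15 of them read, at a mean level of 1.13% in control liver and 0.856% in fasted liver over 28 cytosines. The highest level of any of those cytosines in either library was 7.69%. Acadm had 12 CpGs, 6 of them read, and none of its 10 cytosines showed a methylated read in either library. The other 5 promoters had no CpG read: Cpt1a with 14 CpGs, Pnpla2 with 12, Fgf21 with 9, Pdk4 with 6 and Ppargc1a with 5. The median over all 32851 mouse promoters in the table was 6 CpGs. An MspI site (CCGG) lay in the promoters of Ppara (2 sites) and Acadm (3 sites) and in 47.1% of all promoters, and a TaqI site (TCGA) lay in that of Ppargc1a and in 18.5% of all. Both strands were searched. The letters TGACG, the core of a cAMP response element, occurred in the promoters of Ppara, Ppargc1a, Fgf21 and Acadm and in 17.8% of all promoters. The full element TGACGTCA (1.55% of all) and the forkhead site GTAAACA (3.17%) were in none of the 7, and the E-box CACGTG (6.02%) was in that of Fgf21. A match describes letters only, and the absence of a match covers only this window.

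Reads over cytosines numbered 49253627 for control liver and 51276705 for fasted liver, counting a read at each cytosine it covers. The members had a median of 16 reads in each library. Just inside the coverage threshold, the 64 cytosines whose shallower library had 5 reads averaged 68.5% in control liver and 70.7% in fasted liver, and just outside it the 86 with 4 reads averaged 48.2% and 48.4%. The ends of Alb, Apoa1 and Ttr, 3 defining liver genes, had too few covered cytosines, so the tissue label was not checked against them. The covered start of Apob stood at 23.9% in control liver and 10.3% in fasted liver (adjusted p = 0.218, Fisher's exact test) that of Hnf4a at 33.0% and 29.4%, and the far end of Cyp2e1 at 52.1% and 52.1%. The bodies of these liver genes did not share a direction. Those of Apob (19.8% and 26.0%), Cyp2e1 (37.4% and 51.6%) and Alb (35.1% and 39.2%) were higher in the fasted library. The body of Hnf4a, which held the most cytosines of these, was nearly equal, with 58.0% and 57.6%. None of them was called. Of the 6 markers of other cell types, Epcam had a start at 12.7% and 12.5% and Cd79a a far end at 33.2% and 37.6%. Among their bodies, that of Col1a1, a marker of collagen-producing cells, averaged 53.3% in control liver and 47.3% in fasted liver. Its adjusted p was 0.00625 (Fisher's exact test), and the difference was under the size a call required. The body of Epcam averaged 49.9% in control liver and 51.1% in fasted liver, with 38 cytosines higher and 32 lower. Its difference of 1.23 points had an interval of -1.17 to 3.63, so the mean gave no clear direction. The adjusted p of the Epcam body was 4.73e-06 (Fisher's exact test). These p-values come from summed reads, not from the mean levels. Differences were 0.733 points for the body of Ptprc, -0.177 for Pecam1 and -2.14 for Cd3e, and no marker body was called. A different mix of cells and a different level within a cell cannot be told apart in whole liver, and the part of the markers in the results was not tested.

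Methylation at the 7 loci was close to equal in the libraries. The members averaged 31.7% in control liver and 31.6% in fasted liver, against 45.0% and 45.2% over the 2466496 autosomal cytosines. Of the 1457, 400 were higher in the fasted library, 401 were lower and 656 were equal. Calling a cytosine required 25 points and an adjusted p under 0.05 (Fisher's exact test, Benjamini-Hochberg). No member was called, where 0.0548% of all autosomal cytosines were. The smallest adjusted p of a member was 0.538. At an unadjusted p under 0.05 there were 20 members, 1.37% against 1.85% of all. A gap of 25 points or more was seen at 67 members, 4.60% against 7.41% of all. More members than cytosines at large began near 0: 56.9% were below 10% in the control, against 41.5%.

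Regions gave the same picture. For each gene, an end ran from 1000 bp outside to 500 bp inside the gene span, the body lay between the ends, and a flank filled the rest of the 5000 bp on that side. Those with at least 5 cytosines were tested on summed reads, and a call required 10 points between mean levels besides an adjusted p under 0.05. Of 7 testable ends none was called, against 1.22% of all 15536 gene ends. None of 6 bodies was called (background 1.19%), none of 6 flanks (background 1.94%) and none of 5 windows around the RefSeq start (background 0.785%). At an unadjusted p under 0.05 stood 1 end (background 18.3%), 3 bodies (25.6%), 1 flank (15.2%) and 1 start (19.7%). With the difference left aside, the adjusted p was under 0.05 at 1 end, that of Pdk4 (background 6.33%), and 1 body, that of Ppargc1a (13.9%). The remaining segments held too few cytosines: 4 had fewer than 5 and 12 had none.

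**Figure D1:**
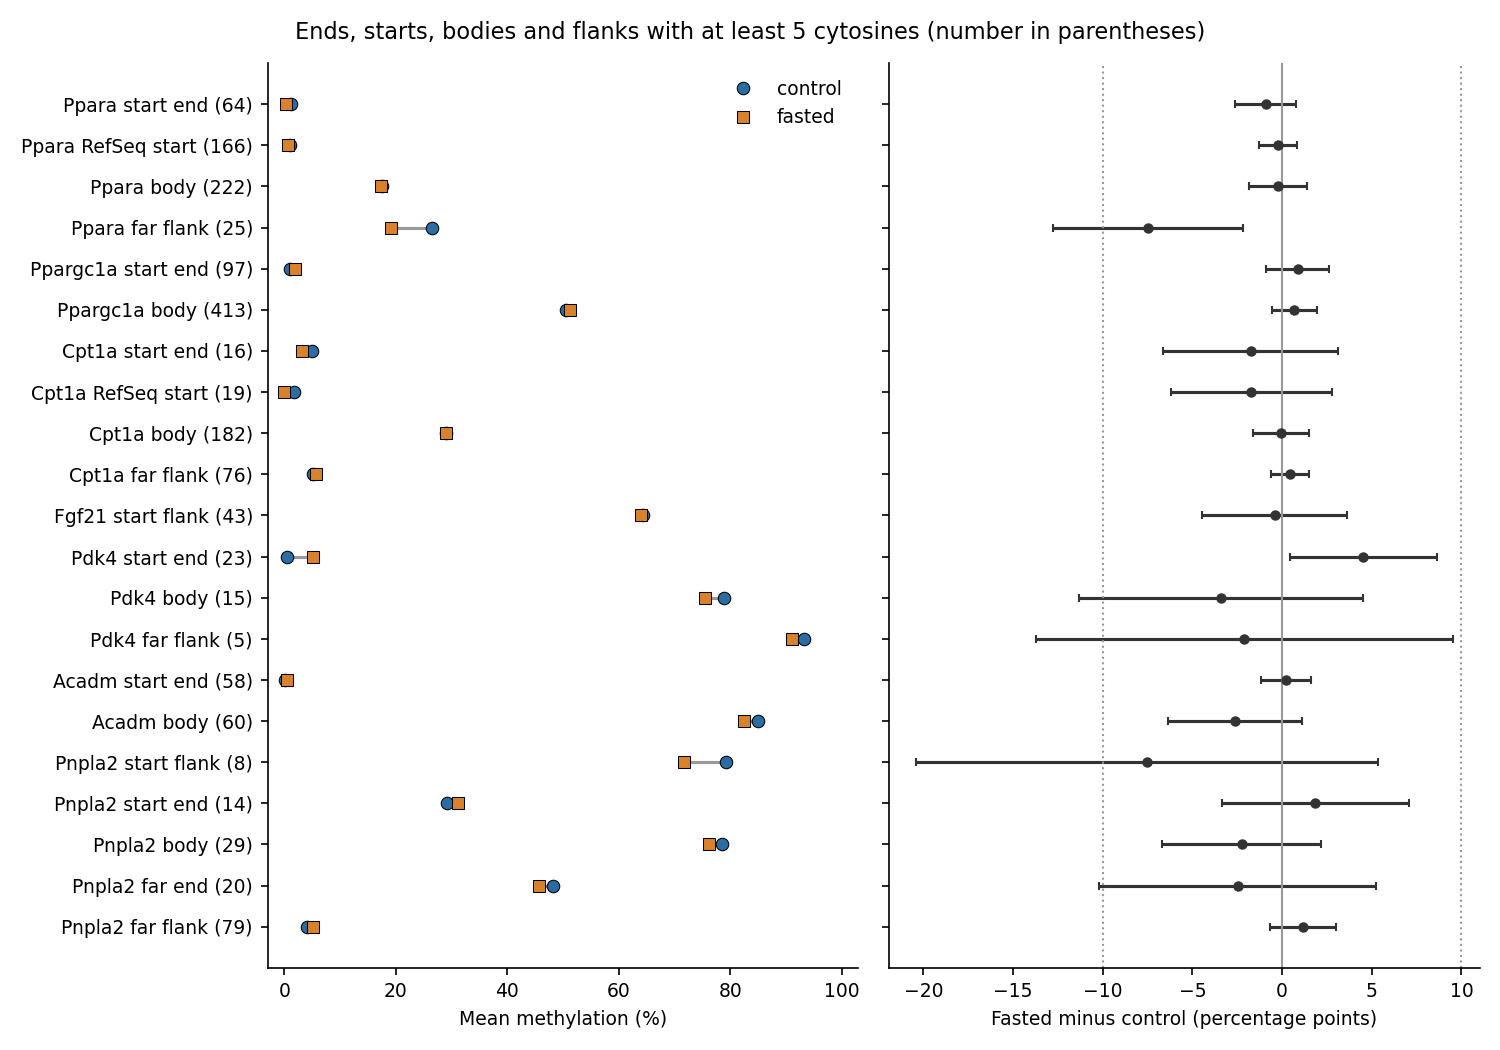
Left, mean methylation (%) of each tested end, start, body and flank in the control (circles) and fasted (squares) library. Right, the difference in percentage points with its 95% counting interval, with dotted lines at the 10 points a call required. All differences lie between -7.55 and 4.54 points.

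The starts of Ppara, Acadm, Cpt1a and Ppargc1a were nearly unmethylated in both libraries. The window around the RefSeq start of Ppara stood at 0.981% in control liver and 0.740% in fasted liver over 166 cytosines (-0.241 points, 95% counting interval -1.29 to 0.808). At the outer edge of the Ppara span the level was 1.24% and 0.323% over 64 cytosines, and at that of Cpt1a 4.92% and 3.17% over 16. The start of Acadm held 58 cytosines at 0.171% and 0.406%. Cpt1a stood at 1.71% in control liver and at 0 of 213 reads in fasted liver over 19 cytosines around its RefSeq start, a count that allows up to 1.72% (exact Clopper-Pearson upper bound). The interval of the Cpt1a difference ran from -6.18 to 2.77 points (adjusted p = 0.272, Fisher's exact test). Further into Cpt1a, a window of 68 cytosines centred at 2199 bp stood at 0.493% and 1.33%, so the unmethylated stretch ran past the start on the gene side.

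Ppargc1a has several annotated starts, and RefSeq places the promoter-table start far inside the span. No cytosine near that start had the coverage, and the nearest windows were centred at -18775 and 50225 bp from it. The outermost start of the Ppargc1a span, chr5:52115354-52116853, was read at 97 cytosines and stood at 1.00% in control liver and 1.87% in fasted liver (adjusted p = 0.300, Fisher's exact test), with 20 cytosines higher and 10 lower. Pnpla2 had methylated DNA just outside an unmethylated start. Its window at -688 bp stood at 66.6% in control liver and 72.7% in fasted liver, and its window at 312 bp at 1.17% and 0%. The Pnpla2 start end averages across this boundary, which gave 29.3% and 31.1% over 14 cytosines. Fgf21 had no cytosine with the coverage at its start or in its short body.

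Far ends were read at few genes. The far end of Pnpla2 held 20 cytosines at 48.2% in control liver and 45.7% in fasted liver (adjusted p = 0.414, Fisher's exact test). Ppara had 3 cytosines there, at 88.9% and 83.3%, Fgf21 had 3 at 54.2% and 54.1%, and Pdk4 had 1, at 77.8% and 83.3%. None was covered at the far ends of Ppargc1a, Cpt1a and Acadm. Beyond its far end, Pdk4 had 5 cytosines in the flank at 93.2% and 91.1%.

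The start of Pdk4 was the end with the smallest adjusted p. It stood at 0.539% in control liver and 5.08% in fasted liver over 23 cytosines, 10 of them higher and 1 lower (4.54 points, interval 0.440 to 8.64, adjusted p = 0.00741, Fisher's exact test). The difference was under the 10 points required. Over the other settings run, the Pdk4 start differed by 4.43 to 5.22 points, with an adjusted p from 0.00615 to 1 (Fisher's exact test). The largest adjusted p came with reads divided by cytosines, a setting that called only 3 of all 15536 gene ends. The difference lay on the minus strand: there 13 cytosines had 1 methylated read of 158 in the control and 14 of 151 in the fasted library, or 0.549% and 8.28% as mean levels. On the plus strand, 10 cytosines had 1 methylated read of 187 and 1 of 109, or 0.526% and 0.909%. All plus-strand cytosines and the methylated minus-strand ones lay within 188 bp after the start. The highest levels were at chr6:5496133 and chr6:5496138, each with 0 of 14 reads methylated in the control and 3 of 13 in the fasted library. The 2 strands of a CpG usually carry the same state, and the reads of neighbouring cytosines are often the same reads, so the 23 values are not independent.

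**Figure D2:**
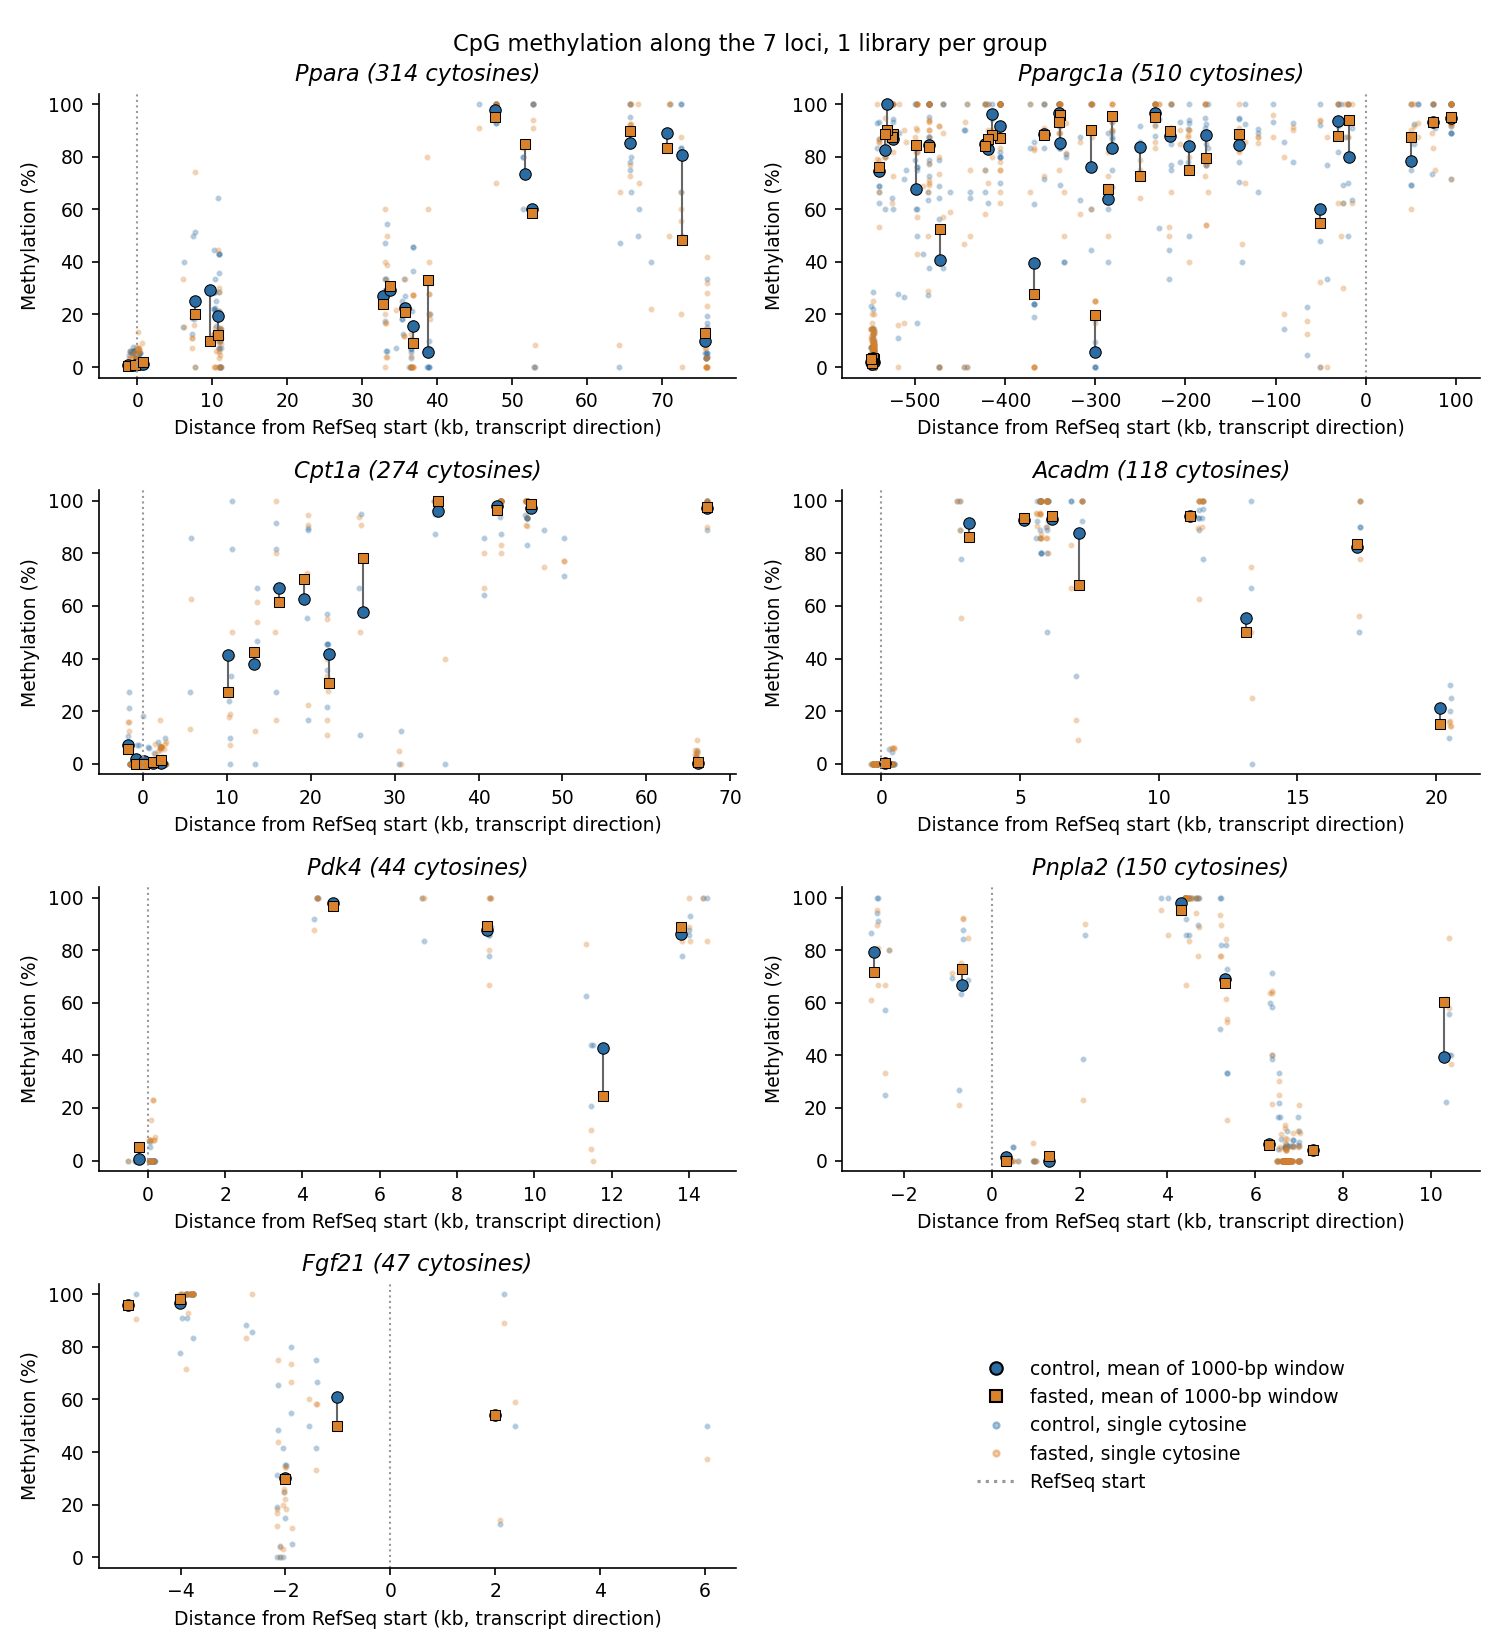
Methylation (%) of single cytosines (small points) and of windows of 1000 bp (large symbols, joined by a line from control to fasted) against distance from the RefSeq start in kb, 1 panel per gene. Windows at the covered starts of Ppara, Cpt1a, Acadm and Pdk4 and the Pnpla2 window at 312 bp sit near 0 in both libraries, and the widest gaps are those of the Ppara windows at 72724 and 38724 bp.

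Body levels differed widely between genes and little between libraries. The body of Ppara stood at 17.6% in control liver and 17.4% in fasted liver over 222 cytosines, and that of Cpt1a at 29.1% and 29.0% over 182. Ppargc1a stood at 50.6% and 51.3% over 413, Pnpla2 at 78.5% and 76.3% over 29, Pdk4 at 78.9% and 75.5% over 15, and Acadm at 85.1% and 82.4% over 60. The bodies of Ppara, Cpt1a and Ppargc1a include nearly unmethylated windows next to their covered starts, which lower these means. Examples are 68 cytosines at 0.493% and 1.33% in Cpt1a and 73 at 1.86% and 3.22% in Ppargc1a. Their body means therefore mix such stretches with more methylated ones. Only the Ppargc1a body had an adjusted p under 0.05 (0.0185, Fisher's exact test), with 0.688 points between mean levels and an interval of -0.584 to 1.96. Summed reads gave Ppargc1a the opposite sign, 40.4% in control liver and 37.8% in fasted liver, so the test and the mean did not point the same way. Exons and introns were not analysed here.

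Windows of 1000 bp with at least 3 cytosines resolved these bodies. There were 98 at the loci: 21 below 10% in the control, 34 from 10 to 80% and 43 at 80% or more. Of them 48 were higher and 50 lower in the fasted library, and 86 stayed in the same class, 87.8% against 86.2% of all 206284 autosomal windows. None passed from below 10% to 80% or more, or back. Ppara had the most windows of intermediate level, 10 of its 18, 7 of them in a stretch from 7724 to 36724 bp after the start. In this stretch of Ppara the windows stood at 25.1% and 20.2% at 7724 bp, 27.1% and 23.8% at 32724 bp, 29.4% and 30.9% at 33724 bp, and 22.3% and 21.1% at 35724 bp, control before fasted. Deeper in the Ppara gene levels were higher, from 60% and 58.6% at 52724 bp to 97.6% and 95% at 47724 bp. Beyond its unmethylated start, Cpt1a had no steady trend: windows stood at 41.5% and 27.2% at 10199 bp, 66.9% and 61.7% at 16199 bp and 41.8% and 30.6% at 22199 bp. The Cpt1a window at 26199 bp stood at 57.6% and 78.2% over 3 cytosines, and that at 35199 bp at 96.3% and 100%. In Ppargc1a, most body windows were at 80% or more, with a low window at -300775 bp that stood at 5.54% in control liver and 19.7% in fasted liver over 5 cytosines (adjusted p = 0.634, Fisher's exact test). Acadm had a low window near its far end, 21.3% and 15.1% at 20143 bp.

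Of the 98 windows 1 was called, 1.02% against a background of 1.43% in either direction and 0.759% for windows higher in fasted liver. It lay in the body of Ppara at chr15:85774001-85775000, 38724 bp after the start, and stood at 5.61% in control liver and 33.1% in fasted liver (27.5 points, interval 16.0 to 39.1, adjusted p = 0.00753, Fisher's exact test). Of its 9 cytosines 7 were higher and 2 lower. The 7 higher ones were all on the plus strand, where 3 of 102 reads were methylated in the control and 21 of 61 in the fasted library. The 2 minus-strand cytosines, at 38984 and 39103 bp, had 6 of 40 and 5 of 44. Plus-strand cytosines ran from 38716 to 38983 bp, a stretch with minus-strand coverage only at its last CpG. At chr15:85774759 on the plus strand 1 of 14 and 5 of 18 reads were methylated, and at the minus-strand cytosine of the same CpG 2 of 20 and 1 of 22. Of the 7, 5 had 5 fasted reads each, so the call rested on few reads. With at least 10 reads required, 4 cytosines were left and the Ppara window differed by 10.3 points (adjusted p = 0.668, Fisher's exact test). The call was also lost with read counts halved (adjusted p = 0.462, Fisher's exact test) and with reads divided by cytosines. It was kept with strands merged (24.4 points, adjusted p = 0.0166, Fisher's exact test) and at equal depth (26.3 points, adjusted p = 0.0239, Fisher's exact test). Of 7 settings with a value for this window 4 kept the call, and its adjusted p ranged from 0.00753 to 1 (Fisher's exact test). No window at this position was called with windows of 500 bp or with windows shifted by 500 bp. With at least 20 reads required it held too few cytosines to be tested.

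**Figure D3:**
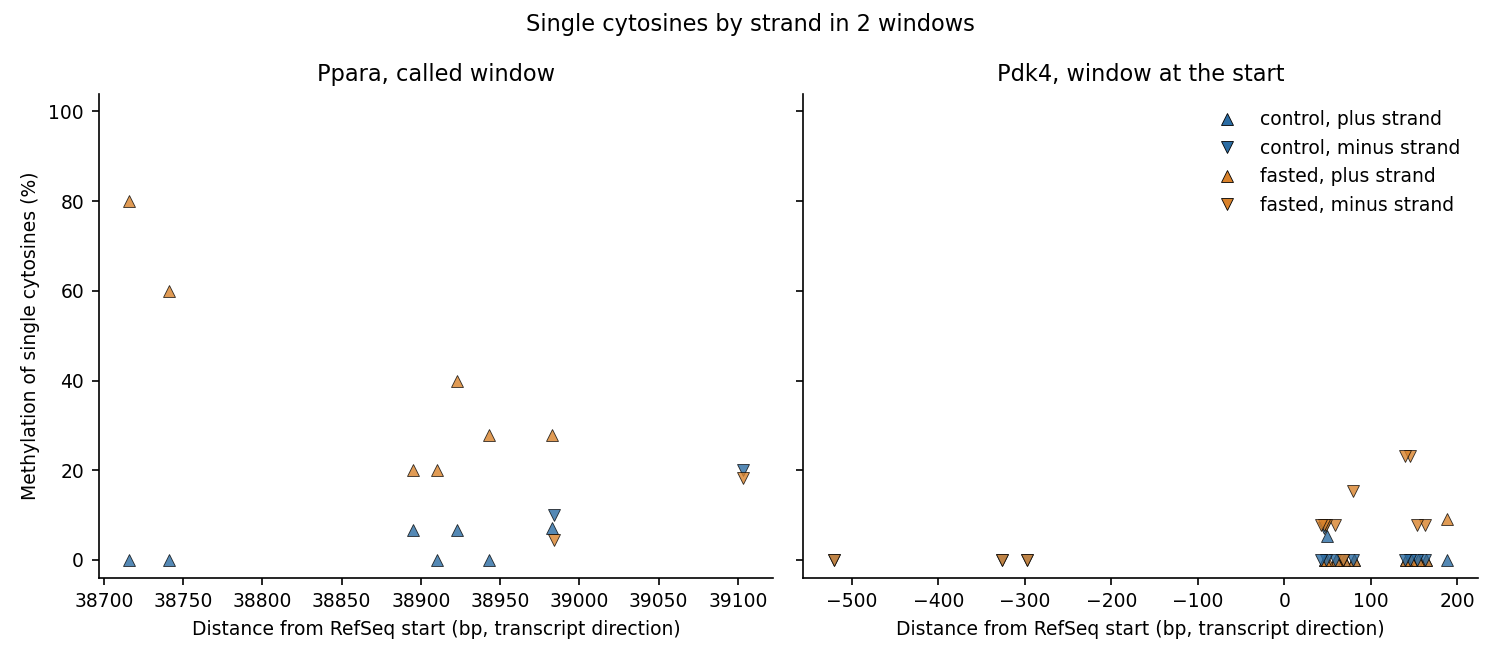
Methylation (%) of single cytosines by strand against distance from the RefSeq start in bp, in the called Ppara window (left) and at the Pdk4 start (right). Fasted values above control are on the plus strand in Ppara and mostly on the minus strand in Pdk4. In Ppara the minus strand was covered only at 38984 and 39103 bp, from the end of the plus-strand stretch on, and stays near the control there. In Pdk4 the plus strand stays near the control, with 1 cytosine higher and 1 lower.

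At an unadjusted p under 0.05 were 13 windows, or 13.3% against 10.8% of all. A further 2 windows had an adjusted p under 0.05 with a smaller difference, making 3 in all (background 2%): the Pdk4 start, and the Ppara window at 10724 bp, which stood at 19.3% in control liver and 12.2% in fasted liver over 27 cytosines (-7.12 points, adjusted p = 0.0269, Fisher's exact test). Of the cytosines in that Ppara window 8 were higher and 18 lower. The neighbouring Ppara window at 9724 bp stood at 29.2% and 10% with all 5 cytosines lower (adjusted p = 0.458, Fisher's exact test). With windows shifted by 500 bp, a Ppara window across the border of these 2, chr15:85745501-85746500, was called, with 25.4% in control liver and 10.3% in fasted liver (adjusted p = 0.0316, Fisher's exact test). In the body of Pdk4, the window at 11778 bp stood at 42.7% and 24.7% over 4 cytosines (adjusted p = 0.163, Fisher's exact test). Its plus-strand cytosine chr6:5484765 had 7 of 16 reads methylated in the control and 0 of 22 in the fasted library, the smallest p of any member (0.000906 unadjusted, 0.538 adjusted, Fisher's exact test). The minus-strand cytosine chr6:5484937 in the same Pdk4 window went the other way, with 15 of 24 and 14 of 17.

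Clusters of cytosines moving together were taken as runs at 3 or more CpGs, no more than 200 bp apart, with every cytosine at least 10 points off in the same direction. They were chosen by their values and so have no test. There were 8, with 39 cytosines, 2.68% of the members against 2.18% of all autosomal cytosines. Of those cytosines 12 were in higher clusters (background 1.13%) and 27 in lower ones (background 1.06%). Ppara held 4 clusters, Ppargc1a 2, and Cpt1a and Acadm 1 each, while Fgf21, Pdk4 and Pnpla2 had none.

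The higher clusters were the 7 plus-strand cytosines of the called Ppara window, at 2.93% in control liver and 39.4% in fasted liver, and a cluster in the body of Ppargc1a. The latter, chr5:52066120-52066166, held 5 cytosines at 65.8% and 90.7%. In this Ppargc1a cluster chr5:52066161 had 5 of 10 reads methylated in the control and 11 of 11 in the fasted library. The window around it averaged 67.8% in control liver and 84.3% in fasted liver (adjusted p = 0.0582, Fisher's exact test), and with at least 10 reads it was called, with 72.5% in control liver and 88.1% in fasted liver (adjusted p = 0.0304, Fisher's exact test).

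Of the 6 lower clusters, that with the lowest level in fasted liver was in the body of Ppargc1a at chr5:51935556-51935594. Its 4 minus-strand cytosines each had 21 reads in the control, with 4, 5, 5 and 5 methylated, and 18 in the fasted library with none methylated, or 22.6% and 0%. The counts were equal across 39 bp, so the 4 values may come from the same reads. The Ppargc1a window of 1000 bp over it, at 39.7% and 27.6%, was not called (adjusted p = 0.470, Fisher's exact test). Windows of 500 bp held these 4 cytosines alone and were called there (adjusted p = 0.000657, Fisher's exact test), on the summed counts of cytosines that may share reads. In Ppara the cluster at chr15:85745975-85746184 stood at 32.7% in control liver and 11.5% in fasted liver over 5 cytosines, and that at chr15:85772533-85772619 at 23.9% and 6.82% over 4. A further Ppara cluster lay in the far flank, inside the neighbouring gene Cdpf1, at 80.6% and 48.3% over 6 cytosines with 5 to 9 reads each. The Cpt1a cluster at chr19:3345272-3345402 stood at 39.4% and 22.2% over 4 cytosines with 11 to 18 reads. Its first cytosine, on the minus strand, shares a CpG with chr19:3345271 on the plus strand, which went the other way. That plus-strand cytosine had 5 of 14 reads methylated in the control and 11 of 20 in the fasted library. The Acadm cluster, chr3:153937566-153937813, stood at 80.2% and 43.9% over 4 cytosines with 6 to 11 reads.

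Single cytosines were named by the size of their difference among those with at least 10 reads in both libraries. In Ppara the largest positive difference was at chr15:85811830 in the far flank, 1 of 19 and 10 of 24 methylated reads, and the largest negative difference at chr15:85746263, 8 of 32 and 0 of 16. In Ppargc1a, chr5:52013001 had 9 of 10 and 7 of 15, and chr5:52052994 had 14 of 21 and 9 of 31. In Cpt1a, chr19:3345271 had 5 of 14 and 11 of 20, and chr19:3333883 had 9 of 11 and 7 of 17. Neither of these 2 Cpt1a cytosines had an unadjusted p under 0.05. The Fgf21 locus had a CpG whose strands differed in opposite directions. At chr7:45617634, on the minus strand, 15 of 31 reads were methylated in the control and 18 of 24 in the fasted library, and at chr7:45617633, on the plus strand, 34 of 52 and 22 of 50 (unadjusted p = 0.0567 and 0.0461, Fisher's exact test). This Fgf21 CpG lies near the start of Fut1, the next gene. In Acadm the extremes were 10 and -20 points, each at a cytosine with 10 reads per library. In Pnpla2, chr7:141465607 had 4 of 10 and 11 of 19 methylated reads, and chr7:141452435 had 13 of 15 and 11 of 18.

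The 2 strands of a CpG gave a yardstick inside each library. At Ppara the strands differed by a mean of 4.69 points in control liver and 5.06 in fasted liver, and the libraries by 4.87 points at the same 118 CpGs. Ppargc1a gave 5.99 and 6.19 between strands and 5.92 between libraries over 143 CpGs, and Cpt1a 1.74, 2.50 and 2.18 over 97. The gap between libraries was thus about that between strands read within 1 library. Acadm, Fgf21 and Pnpla2 had a smaller gap between libraries than between strands in either library, and Pdk4 lay between, at 3.46, 10.1 and 7.05 over 13 CpGs. The same cells are sampled by both strands, so this describes the spread within a library, not between animals.

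Window differences were about as large at these loci as elsewhere. The median size was 3.06 points, against 3.81 over all autosomal windows, and 20 of the 98 reached 10 points, 20.4% against 17.4%. Among windows at 10 to 80% in the control, where a change in either direction has room, 12 of 34 reached 10 points, 35.3% against 31.7%. Of those 34 windows 14 were higher in the fasted library and 20 lower. Among all 73252 autosomal windows of that class, 42504 were higher and 30498 lower. The class was chosen by the control level alone, so these splits do not measure a direction between the libraries. Over all autosomal windows of any level, 104019 were higher and 99597 lower.

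**Figure D4:**
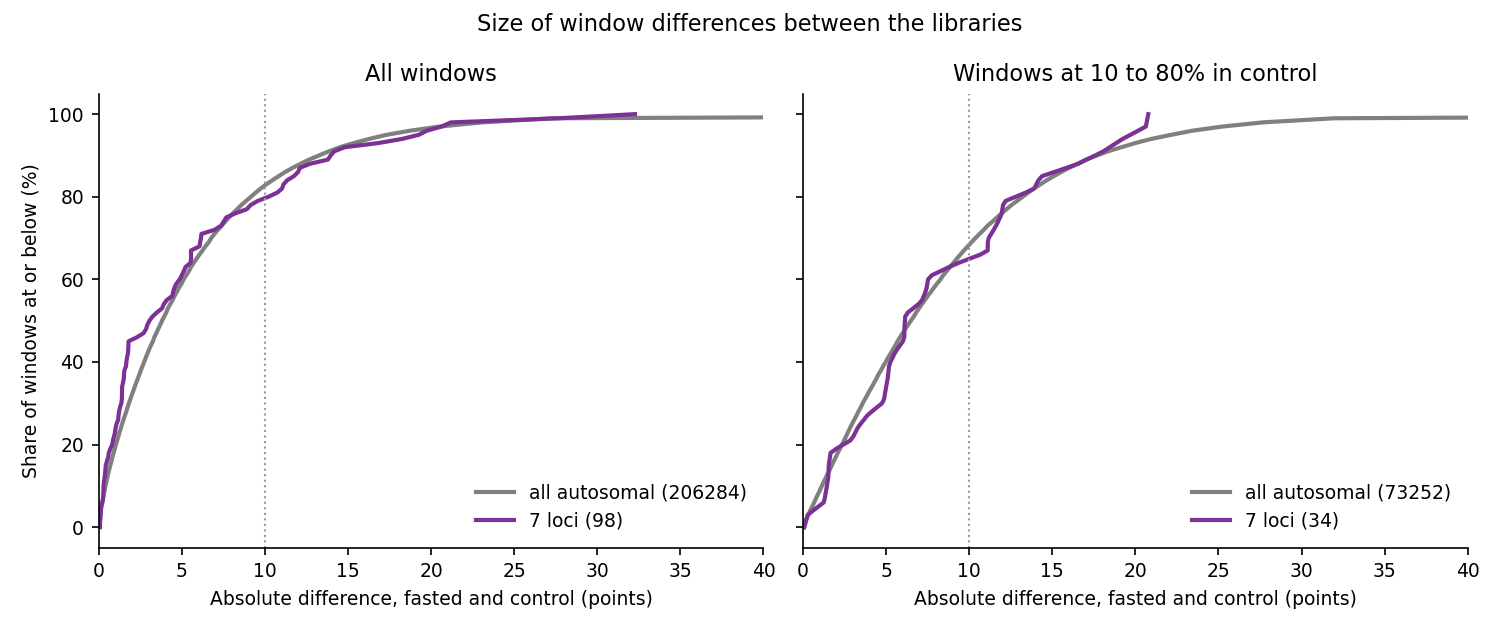
Share of windows (%) with an absolute difference at or below the value on the x axis (points), for the 7 loci and for all autosomal windows, with all windows on the left and those at 10 to 80% in the control on the right. The curves run close together, and a dotted line marks the 10 points a call required.

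Flanks often belonged to other genes. The far flank of Ppara holds the start of Cdpf1, with a window at 10.03% in control liver and 13.0% in fasted liver over 22 cytosines, and the whole flank stood at 26.6% and 19.1% (-7.48 points, adjusted p = 1, Fisher's exact test). Summed reads gave the Ppara flank 12.9% and 13.2%, with the opposite sign. That of Cpt1a holds the start of Tesmin, with 72 cytosines at 0.130% and 0.567%. The start flank of Fgf21 held 43 of its 47 cytosines, at 64.4% and 64.0%. Near the start of Fut1, a window of 19 cytosines at -2010 bp stood at 30.0% and 29.7%. Further inside Fut1, a window of 18 cytosines at -4010 bp stood at 96.8% and 98.0%, so the mean of this flank mixes unlike levels. The far flank of Pnpla2, which overlaps Cracr2b and the noncoding Gm10575, stood at 4.04% and 5.21% over 79 cytosines. The start flank of Pnpla2 had 8 cytosines at 79.2% and 71.7%, with an interval of -20.4 to 5.31 points.

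Other genes of the same pathways were read for comparison, in 6 lists with 69 genes. They had 69 ends with at least 5 cytosines, none of them called, and 55 of these were below 10% in the control. Their median difference was -0.0276 points, against 0.00733 over all gene ends. In fatty acid import the widest end difference was at the far end of Cpt2, the inner-membrane partner of Cpt1a, at 58.0% in control liver and 50.8% in fasted liver, followed by an end of Cpt1b, the muscle form of the entry enzyme, at 80.03% and 76.8%. In beta-oxidation it was at the far end of Acadvl, the very-long-chain acyl-CoA dehydrogenase, at 84.4% and 94.4% over 6 cytosines, followed by the start of Echs1 at 3.41% and 0.370%. The ketogenic genes had 4 testable ends, all below 10%, with Acat1 at 1.14% and 0%. In lipolysis the far end of Mgll, the monoglyceride lipase, stood at 92.0% and 79.4% over 5 cytosines, and that of Abhd5, which activates the Pnpla2 lipase, at 88.1% and 82.0%. Among PPARA partners the start of Creb3l3, a liver transcription factor of the fasting response, stood at 72.2% and 58.3% over 5 cytosines (adjusted p = 0.902, Fisher's exact test), and the far end of Pparg at 94.4% and 90.6%. Among other PPARA targets the far end of Ucp2, a mitochondrial carrier, stood at 58.5% and 61.0%.

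Of 62 bodies in the lists 3 were called, all lower in the fasted library, where 0.584% of all gene bodies were called lower. The lists were fixed with earlier results of these data known. These calls rest on summed counts of cytosines that may share reads. With reads divided by cytosines, 0 of all 15411 gene bodies were called. Echs1, an enoyl-CoA hydratase of beta-oxidation, stood at 63.4% in control liver and 30.5% in fasted liver over 8 cytosines (adjusted p = 0.00163, Fisher's exact test). Acot1, an acyl-CoA thioesterase with closely related neighbouring genes, stood at 66.5% and 42.4% over 16 cytosines. Pdk1, a relative of Pdk4, stood at 77.5% and 63.6% over 27 cytosines. With the size of the difference left aside, 10 of the 62 had an adjusted p under 0.05, 16.1% against 13.9% of all bodies. Among them was Bdh1, which interconverts the ketone bodies, at 48.1% in control liver and 55.9% in fasted liver over 169 cytosines, 99 of them higher and 54 lower (7.85 points, interval 5.31 to 10.4, adjusted p = 8.6e-06, Fisher's exact test). The starts of Echs1, Acot1 and Pdk1 were below 10% in both libraries, with Acot1 at 0.267% and 2.55%. The median difference over the 62 bodies was -0.389 points, against -0.0108 over all.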

How the data were processed

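Genomic DNA of frozen liver was cut with TaqαI and MspI, size-selected, bisulfite-treated, amplified and sequenced, per the labels' protocols. Reads were handled with bcl2fastq 1.8.4 and Bismark 0.14.3 on mm10, according to the submitters' processing notes. Trimming, handling of duplicates and filters were not given in the sources used here. The deposited files give, for CpG cytosines on each strand, methylated and total read counts and a score equal to 1000 times the methylated fraction, within 0.5 of what the counts gave. All values were computed from the deposited read counts, with no normalization.

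Groups were taken from the sample titles. Cytosines needed at least 5 reads in both libraries, 67.0% of cytosines listed for control liver and 69.8% of those for fasted liver having that depth. Two-sided Fisher's exact tests on reads used Benjamini-Hochberg adjustment over all autosomal cytosines, gene segments or windows. The p-values cover counting error only, and amplified reads lacking molecular identifiers may repeat a molecule. In some stretches of Ppara, read counts in both libraries doubled exactly between nearby cytosines of the same strand. Whether fragments were counted more than once was not tested. Repeated counts would make p-values too small and intervals too narrow. With read counts halved, no member window was called. Intervals of differences are 95% and treat reads as independent draws. Spans came from a RefSeq table (GRCm38.p6) and starts and strand from its promoter table, whose sequence carried C or G, by strand, at all 53 covered promoter cytosines. The members, gene lists and tests were chosen with earlier results of these data known. Named are all segments, called windows, clusters, up to 3 cytosines in each direction per gene, and list genes with a called body or the widest end differences, of which 1 is not reported here. Calculations used Python 3.11.15 and SciPy 1.17.1. Alternatives were other coverage minimums and caps, merged strands, equal depth, halved or divided reads, and other windows and thresholds. The RefSeq start windows and the split by strand were added after seeing the data.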

Additional observations from a re-analysis of the deposited data

How the results depend on the processing

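With 1 library per group no replicate could be left out, and no paired analysis was possible because each group has 1 sample. No member cytosine, end, start, body or flank was called under any setting run. With reads divided by cytosines, the background was 0 of 15411 bodies, 0 of 12964 flanks and 3 of 15536 ends called. Of all 206284 autosomal windows it called 1. That setting could hardly call a member region, so its lack of calls says little. Of counts under other settings, 60 stayed within 1.5 times and 10 moved. Most of those that stayed were counts of 0 that remained 0. With at least 10 reads and with windows of 500 bp the window count stayed at 1, but the window called was in Ppargc1a, not Ppara. The window count of 1 became 0 with at least 20 reads, with read counts halved and with reads divided by cytosines, and 2 with strands merged, with a 5-point threshold and with windows shifted by 500 bp. At 20 reads the called Ppara window held too few cytosines to be tested. The cluster count of 39 cytosines became 13 at 10 reads, 0 at 20 reads, 61 with steps of 5 points and 23 with gaps of at most 100 bp. The called Ppara window gave 10.3 points at 10 reads, and 27.5 points with adjusted p = 0.462 halved and 1 divided (Fisher's exact test). Segment differences, in settings that could move them, kept their direction in 127 cases, were 0 in 2 and changed sign in 12, none of them called, while halving or dividing reads leaves a difference as it is. The changes of sign were at Ppara far flank (0.352 at 10 reads, 0.292 from summed reads), Ppargc1a start (-0.0182 at 20 reads), Cpt1a body (0.552 at 20 reads, 0.0224 at equal depth, 2.13 from summed reads), Ppargc1a body (-0.0164 at 20 reads, -2.60 from summed reads), Pnpla2 far end (6.56 from summed reads), and, with strands merged, Pdk4 body (0.345), Pnpla2 start flank (2.83) and Fgf21 start flank (0.269). The cause was not tested.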
